A study of Saccharomyces cerevisiae with 8 samples.

Results

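Transcripts for the proteins of the large (60S) subunit of the cytoplasmic ribosome were followed in budding yeast (Saccharomyces cerevisiae) across RNA selected with Upf1p and RNA from mock selections. Members were the array probe sets for which every annotated gene symbol is an RPL gene with a number, or RPP0, RPP1A, RPP1B, RPP2A or RPP2B. This gave 96 of 9275 tested probe sets, and they covered 79 genes. The symbol rule also took in RPP1, a protein of the nuclear RNase P and RNase MRP enzymes and not of the ribosome. It was set apart, with a log2 ratio of 0.34 (SE 0.27, limma, adjusted p = 0.368).

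The study compared 4 arrays of RNA recovered with Upf1p carrying a TAP tag, which binds IgG, with 4 arrays of mock selections made in parallel and numbered 1 to 4 like them. Cells of both groups grew in YEPD, a rich medium, at 30 °C, and the labels give neither the strain nor what the mock extract was made from. Every array held RNA eluted from IgG beads with TEV protease, and equivalent amounts of tagged and mock RNA were carried on to labelling. The values therefore compare the make-up of both eluates and not the amount recovered. Total RNA of the extracts was not analysed here, so recovery with Upf1p and the level of a transcript in the extract cannot be told apart.

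Upf1p, an RNA helicase, is needed for nonsense-mediated mRNA decay (NMD), which degrades mRNAs on which translation ends too early. The large subunit forms peptide bonds and carries the tunnel through which the new protein leaves. Its protein mRNAs are among the most abundant in growing yeast, and most of its genes exist as an A and a B copy that encode the same or nearly the same protein. Many of these genes carry an intron, and the unspliced RNA of RPL28, also called CYH2, is a classic NMD substrate.

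Near-identical copies limit what an array can tell apart. Of the 96 probe sets, 38 were annotated to both copies of a gene. Another 35 were annotated to 1 gene and had a plain probe set name, and 23 were annotated to 1 gene but had a name by which the array maker marks probes that are not unique or are incomplete (endings such as _i_at and _f_at). The arrays had median signals between 58.7 and 77.9, and the members were far brighter. Their mean mock signals had a median of 4794 and an interquartile range of 3557 to 6903, and ran from 95.7 (RPL7A, 7473_at) to 11528 (RPL2A and RPL2B, 5329_s_at).

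Most large subunit probe sets had a ratio below 0, but most did not pass the test singly. The log2 ratio of Upf1p-TAP over mock had a median of -0.37 over the 96 probe sets, and 90 of them lay below 0, while the median of all 9275 tested probe sets was 0.00. With limma and Benjamini-Hochberg adjustment over all tested probe sets, 34 members (35.4%) were lower at the threshold of 0.05, against 13.5% of all probe sets. Only RPL22B and RPL15B were higher, or 2.08% of the members against 17.7% of all probe sets. In either direction the test called 31.2% of all probe sets. Whether called or not, 23 members had every Upf1p-TAP signal below every mock signal. RPL31B (9897_f_at) and both copies of RPL14 (10556_i_at) were among these without being called. Signals of both higher members did not overlap either. Such a gap was seen for 11.1% (lower) and 14.9% (higher) of all probe sets.

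The pairs of selections did not show this to the same degree. Over the members the median log2 ratio was -0.42 in pair 1, -0.29 in pair 2, -0.18 in pair 3 and -0.47 in pair 4. The number of members below 0 was 86, 87, 61 and 91 in the same order, so pair 3 stood apart. As a share of the summed signal of an array, the members held 13.9%, 11.5%, 11.7% and 11.2% on the Upf1p-TAP arrays 1 to 4 and 17.0%, 13.4%, 12.9% and 14.7% on the mock arrays. The share was smaller with Upf1p-TAP in each pair, though the ranges of the groups overlap.

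The count of lower members changed with the pair left out and with the scaling. It was 17 without replicate 1, 16 without replicate 2, 43 without replicate 3 and 8 without replicate 4, each time leaving out both arrays of that number. It was 13 after quantile normalization and 15 in a fit without the pairs, and the median ratio stayed below 0 in each of these fits. Fewer arrays enter the fits with a pair left out. The share of all probe sets called in these alternatives is not given here, so the changes cannot be read as particular to the members. The 8 probe sets that were lower in the main fit and in every alternative were those of RPL3, RPL17B (11203_i_at), both copies of RPL9 (8921_s_at), RPL7A (7473_at and 5076_f_at), RPL39, RPL25 and both copies of RPL40 (10473_i_at). Every other lower call of a member was lost in at least 1 alternative. Probe set 7473_at was not tested with the filter on dim probe sets, which leaves it out.

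**Figure D1:**
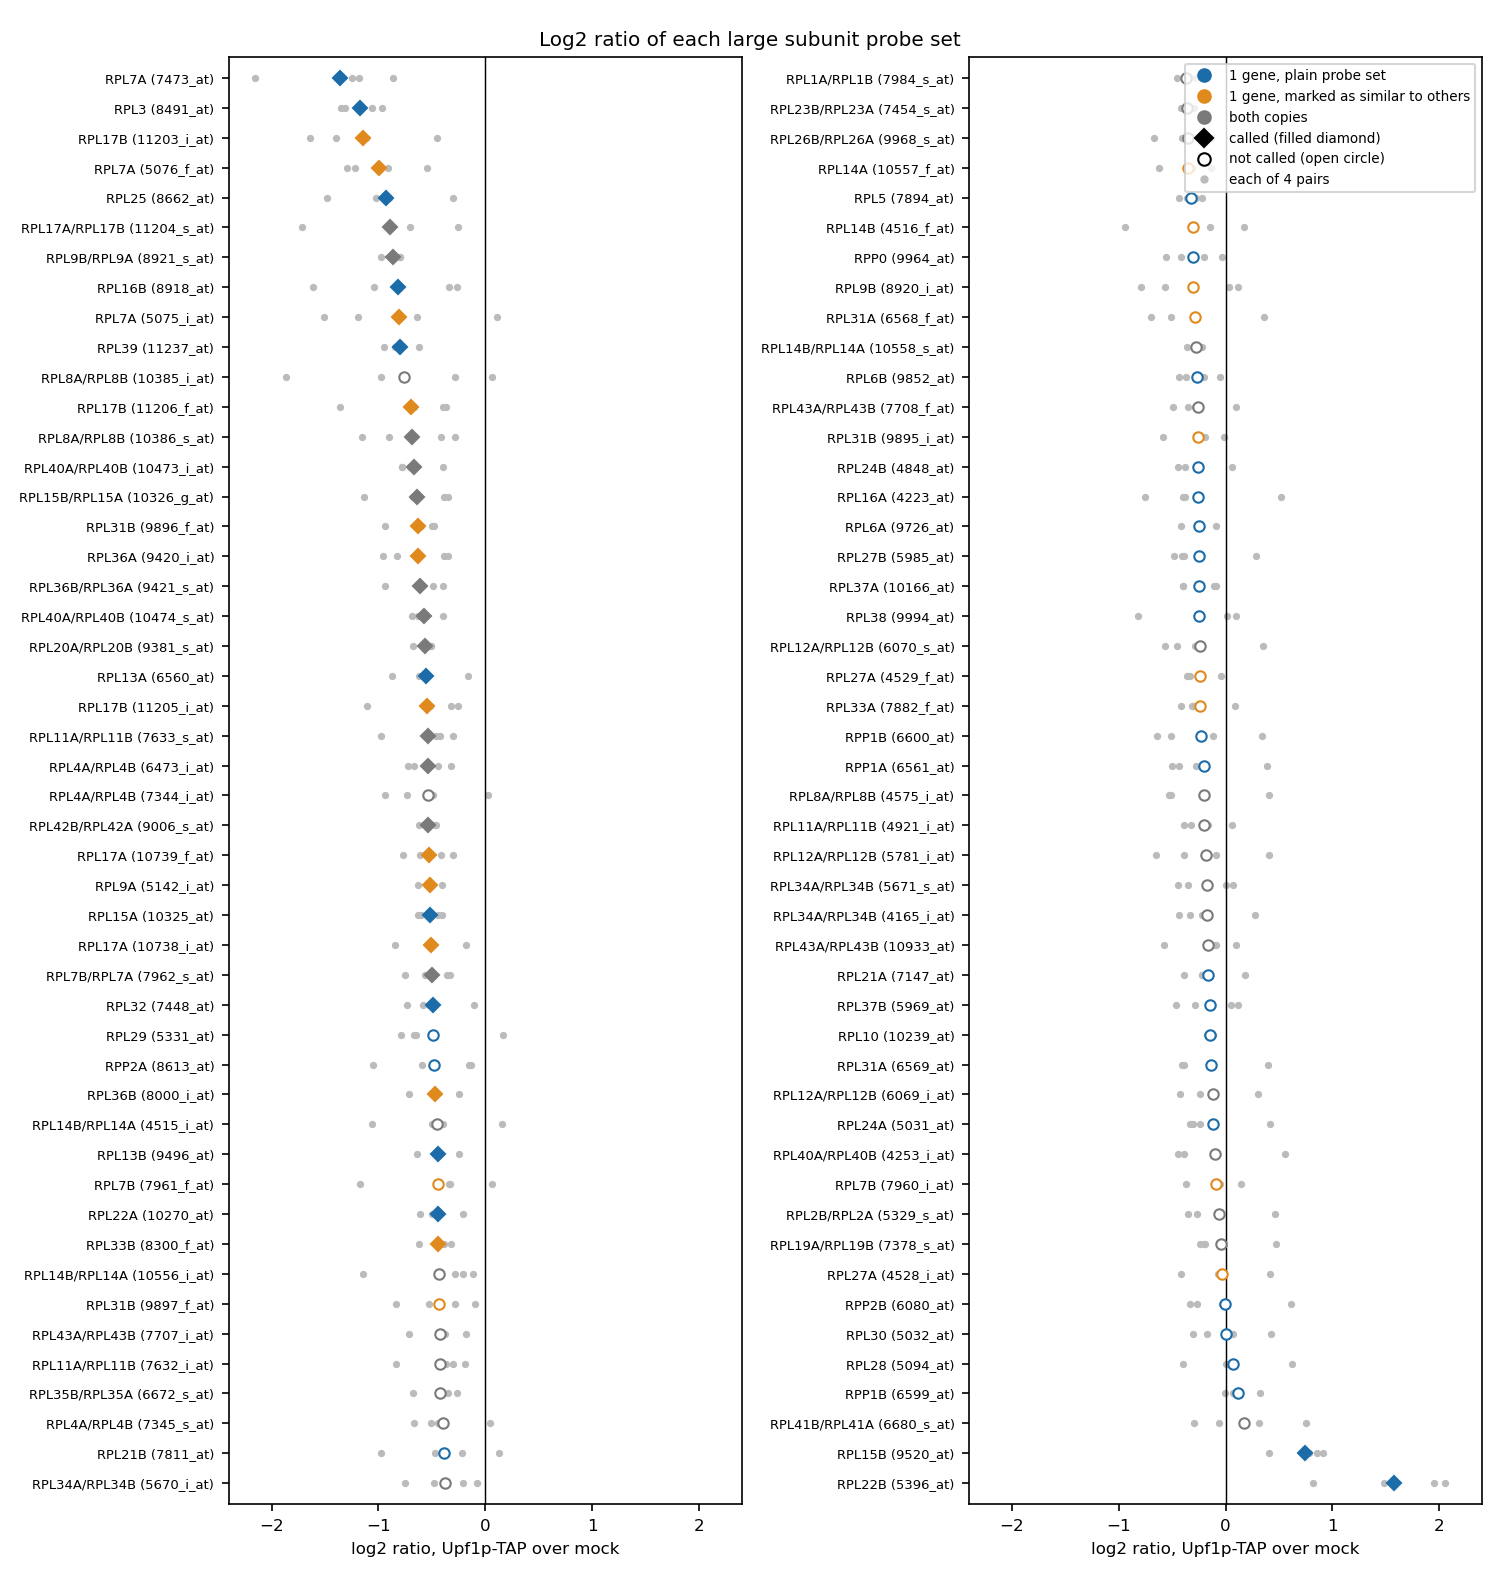
Mean log2 ratio of Upf1p-TAP over mock for each of the 96 large subunit probe sets (x axis), in order of the ratio from the top left to the bottom right. Grey points are the 4 pairs, colours give the kind of probe set, and filled diamonds mark the 34 lower and 2 higher calls. RPL22B and RPL15B stand apart at the bottom right.

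Bright transcripts in general were lower with Upf1p-TAP, so the members were set beside other genes of like mock signal. For each member and pair, the 100 probe sets of other single genes nearest in mock signal were taken, with the mock signal read from the other 3 pairs so that it shared no array with the ratio. These neighbours had a median ratio of -0.26. The median member lay 0.10 below its neighbours (-0.10), and in pairs 1 to 4 the median difference was 0.03, -0.06, 0.01 and -0.22. It was thus near 0 in 3 pairs and clearly below 0 only in pair 4. Of the 96 members, 62 lay below their neighbours on average, 19 did so in all 4 pairs and 8 lay above them in all 4 pairs.

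Few other genes are as bright as these. Only 41 of the 6399 probe sets of other genes had a mock signal as high as the median member, and 80 members were brighter than the 100th brightest of them. The neighbours were therefore dimmer than the members, by a median of 0.31 on the log2 scale. Within the interquartile range of the members' mock signal, where levels do match, 46 probe sets of other genes had a median ratio of -0.21, and the test called 13 of them lower (28.3%). The 48 members in that range had a median of -0.43, and 20 were called lower (41.7%). No test was made of these differences.

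**Figure D2:**
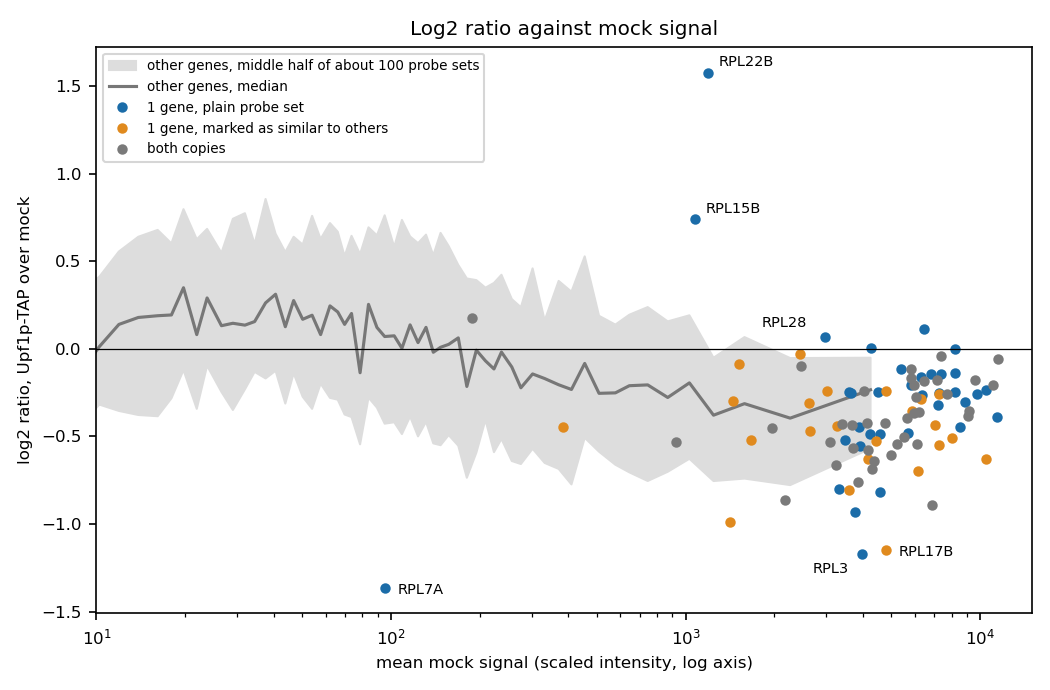
Mean log2 ratio of Upf1p-TAP over mock (y axis) against the mean mock signal on a log axis (x axis), for the 96 large subunit probe sets as points coloured by kind. The grey line and band give the median and interquartile range of other genes in bins of about 100 probe sets; both axes share the mock arrays. The line falls below 0 among bright probe sets, and RPL22B and RPL15B lie far above it.

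RPL22B was the large subunit transcript most enriched with Upf1p. Rpl22 is a protein near the exit of the peptide tunnel that cells can live without, and it is known to bind the intron of RPL22B RNA and hold back its splicing. The signal of RPL22B (5396_at) was 3579, 2838, 4316.5 and 3287 on the Upf1p-TAP arrays 1 to 4 and 857, 1609, 1116 and 1176 on the mock arrays. Every Upf1p-TAP array lay above every mock array. The log2 ratio was 1.58 (SE 0.22, limma, adjusted p = 0.00084), a 2.98-fold difference, and lay 1.84 above its neighbours in mock signal. It was called in all 11 alternatives, with ratios from 1.41 to 1.83.

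RPL22A, the copy that supplies most of the protein, had a ratio below 0, near that of other bright genes. Its signal (10270_at) was 7718, 6055, 4899 and 6181 with Upf1p-TAP and 11817, 6986, 6739 and 8739 in the mock. The groups overlap, because Upf1p-TAP array 1 lay above mock arrays 2 and 3, but the Upf1p-TAP array was the lower of each pair. The log2 ratio was -0.44 (SE 0.14, limma, adjusted p = 0.0356), and it passed the test in only 4 of 11 alternatives. Leaving out pair 1, 2 or 4 ended the call, with a limma adjusted p of 0.13, 0.0772 and 0.121. Without pair 2 the ratio was further from 0, at -0.52, but its SE was larger, at 0.19. The median ratio of all members was -0.37. RPL22A lay only 0.19 below its neighbours in mock signal (-0.19), and in pair 2 the difference was 0.01. The difference between the copies, RPL22A minus RPL22B, was -2.02 ± 0.72 (SD over 4 pairs) and ran from -2.67 in pair 1 to -1.02 in pair 2.

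RPL15B was the other member that was higher. Rpl15 is an essential protein of the subunit core. RPL15B (9520_at) had signals of 1683, 2090, 1815 and 1586 with Upf1p-TAP and 1265, 1109, 1056 and 874 in the mock, so that the groups did not overlap. The log2 ratio was 0.74 (SE 0.17, limma, adjusted p = 0.00939), and its adjusted p was 0.0523 without replicate 2, which ends the call.

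RPL15A (10325_at), the copy of RPL15B, had signals of 2891, 2275, 2342.5 and 2119 with Upf1p-TAP and 4388, 3010, 3185 and 3279 in the mock. Here too the groups did not overlap, with the mock arrays on top. The log2 ratio was -0.52 (SE 0.15, limma, adjusted p = 0.0246), and it passed in 5 of 11 alternatives. Leaving out pair 1, 2 or 4 ended this call as well, with a limma adjusted p of 0.084, 0.0769 and 0.101. Without pair 2 the ratio was further from 0, at -0.56, but its SE was larger, at 0.20. RPL15A lay only 0.19 below its neighbours in mock signal (-0.19), while RPL15B lay 0.99 above its own. Another probe set, 10326_g_at, is annotated to both copies and was lower as well, at -0.64 (SE 0.17, adjusted p = 0.0211). The difference RPL15A minus RPL15B was -1.26 ± 0.20 (SD over 4 pairs), with values from -1.49 to -1.01, the steadiest of the large differences between copies.

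**Figure D3:**
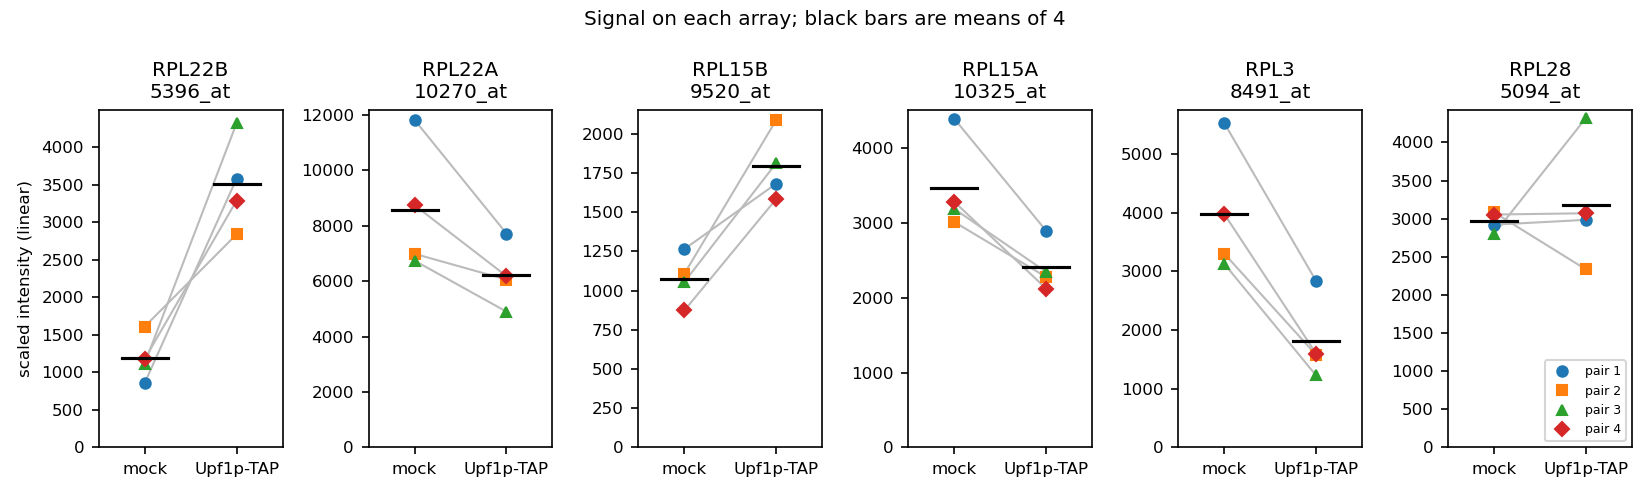
Scaled intensity (y axis, linear, from 0) on each mock and Upf1p-TAP array for RPL22B, RPL22A, RPL15B, RPL15A, RPL3 and RPL28. Lines join the arrays of a pair and black bars are the means of 4 arrays; all pairs rise for RPL22B and RPL15B and fall for RPL22A, RPL15A and RPL3.

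Across the family, copies with a probe set each could be compared for 18 of 34 gene pairs, and 10 of these had a plain probe set for both. Here RPP1A with RPP1B and RPP2A with RPP2B count as pairs. The difference between the copies kept its sign in all 4 pairs of selections for 6 gene pairs, namely RPL22, RPL7, RPL15, RPL21, RPL33 and RPL24. For each of these the exact two-sided sign-flip permutation test gave p = 0.125, the smallest value that 4 pairs allow, so no difference between copies could pass 0.05 before or after adjustment for the 18 comparisons.

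On the probe sets picked for the comparison, the copies of RPL7 differed by about as much as those of RPL15. RPL7A minus RPL7B was -1.27 ± 0.76 (SD over 4 pairs), read from 7473_at for RPL7A and 7960_i_at for RPL7B. Probe set 7473_at was dim and its groups overlap, at 18.6, 47.3, 30.6 and 31.1 with Upf1p-TAP and 37.2, 118, 74.6 and 153 in the mock. The brighter RPL7A probe sets 5076_f_at and 5075_i_at had ratios of -0.99 and -0.81, and the second RPL7B probe set, 7961_f_at, had -0.45 and did not pass. RPL7A was thus lower on all 3 of its probe sets. The brighter ones lay nearer to 7960_i_at of RPL7B (-0.09), so the size of the difference depends on the dim probe set. In pair 2, 5075_i_at was at 0.11 and 7960_i_at at -0.07, so with 5075_i_at the difference would not keep 1 sign.

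The other 3 differences of 1 sign were small, and 1 pair decided the size of each. RPL21A minus RPL21B was 0.23 ± 0.36, ran from 0.00 to 0.76, and was 0.05 without replicate 1. RPL33A minus RPL33B was 0.20 ± 0.23 and RPL24A minus RPL24B was 0.14 ± 0.15 (SD over 4 pairs), and without replicate 3 they were 0.09 and 0.07. Rpl24 forms a bridge to the small subunit. Of these genes, RPL33B was lower (-0.44, limma, adjusted p = 0.0485), but in only 5 of 12 fits counting the main one. It was not called with any pair left out, and its difference from its neighbours in mock signal was only -0.08. RPL33A (-0.24), RPL21A (-0.16), RPL21B (-0.39), RPL24A (-0.12) and RPL24B (-0.26) did not pass. RPL16 shows how unsteady a difference can be, since RPL16A minus RPL16B was 0.56 ± 1.14, with 2.13 in pair 3 and -0.42 in pair 2. The choice of RPL16 and the next genes followed their values. For RPL6, RPL27, RPP1, RPL17 and RPL14 the mean difference lay between -0.05 and 0.04. Over the pairs it ran from -0.79 to 0.80 for RPL14 and from -0.52 to 0.61 for RPL17. The probe sets of both copies of RPL14, RPL17 and RPL33, and that of RPL27A, were marked as not unique or incomplete. Such probe sets may not keep the copies apart, so a small difference does not show that the copies behaved alike. The RPL17 difference was read from 11205_i_at for RPL17B (-0.55), and the RPL17B probe set 11203_i_at had a ratio of -1.15. For RPP1B it was read from 6600_at (-0.23), and the other RPP1B probe set, 6599_at, was at 0.12.

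**Figure D4:**
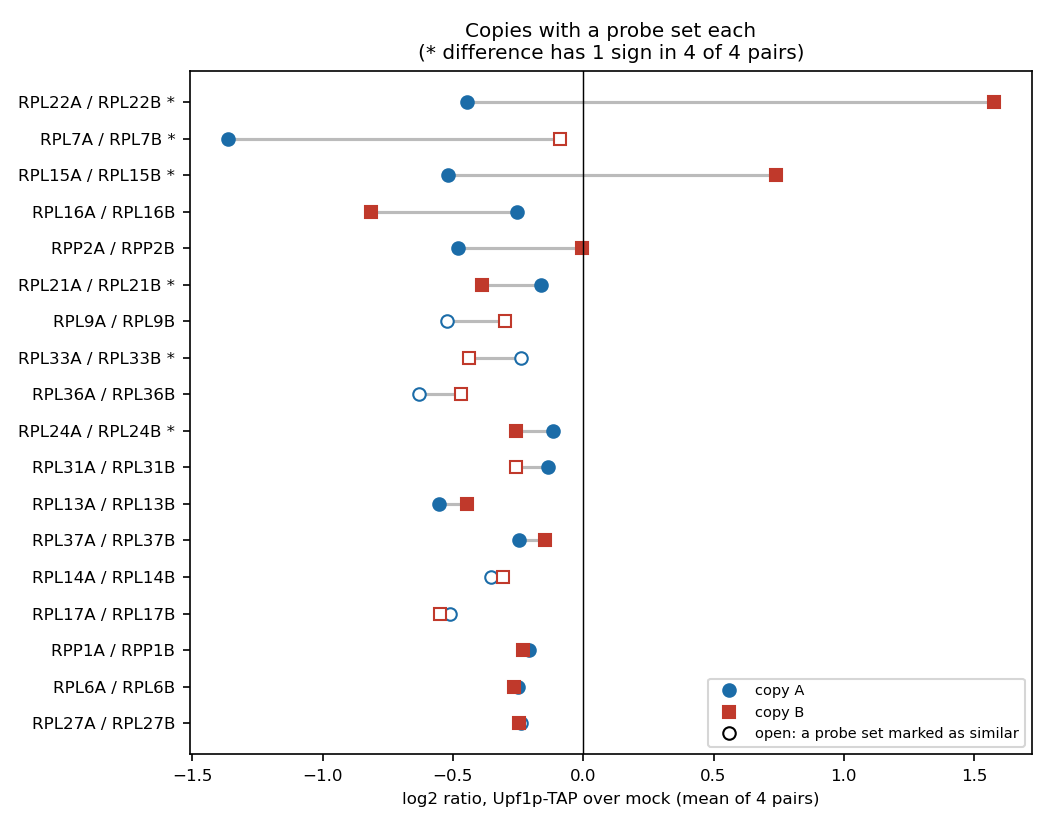
Mean log2 ratio of Upf1p-TAP over mock over 4 pairs (x axis) for copy A (circles) and copy B (squares) of the 18 gene pairs with a probe set for each copy, ordered by the size of the difference. Open symbols are probe sets marked as similar to others, and an asterisk marks 1 sign of the difference in 4 of 4 pairs. RPL22 and RPL15 straddle 0 by more than any other pair.

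RPL28 and RPL30, both known for RNA that is held back or destroyed when unspliced, did not pass the test. RPL28 encodes the protein whose mutation gives resistance to cycloheximide. Its signal (5094_at) was 2984, 2333.5, 4322 and 3071 with Upf1p-TAP and 2921, 3082, 2799 and 3054 in the mock, with the groups overlapping. The log2 ratio was 0.07 (SE 0.19, limma, adjusted p = 0.821), from -0.40 in pair 2 to 0.63 in pair 3. Rpl30 binds its own transcript and blocks its splicing. RPL30 (5032_at) had a signal of 4309 ± 1017 with Upf1p-TAP and 4267 ± 848 in the mock (SD, n = 4), and a log2 ratio of 0.01 (SE 0.16, limma, adjusted p = 0.985). The sources used here do not place the probes relative to the introns, and spliced and unspliced RNA could not be told apart. Both genes lay above their neighbours in mock signal on average, RPL28 by 0.44 and RPL30 by 0.28, and each did so in 3 of 4 pairs.

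Around the peptidyl transferase centre, where peptide bonds form, 1 of 3 probe sets was lower, against 35.4% of all members and 13.5% of all probe sets. RPL3, whose protein reaches towards that centre, was the member with the smallest p. Its signal (8491_at) was 2835, 1577, 1226 and 1598.5 with Upf1p-TAP and 5529.8, 3303, 3130.0 and 3979 in the mock. The groups did not overlap. RPL3 had a log2 ratio of -1.17 (SE 0.15, limma, adjusted p = 0.000659), between -1.35 and -0.96 in the pairs, and lay 0.91 below its neighbours (-0.91). RPL10, whose protein joins the subunit late in its assembly, was at -0.14, and the probe set of RPL2A and RPL2B, the brightest member, was at -0.06. Neither passed, and RPL10 and RPL2 were named after their values were seen.

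Among genes for proteins of the exit tunnel and its rim, 11 of 22 probe sets were lower (50%) and 1, RPL22B, was higher. Of all members 35.4% were lower, and of all probe sets 13.5%. Their median was -0.48. RPL17B (11203_i_at) had signals of 2337, 3693, 1779 and 1416 with Upf1p-TAP and 5059.5, 5040.0, 4688 and 4422 in the mock, without overlap. This gave a log2 ratio of -1.15 (SE 0.20, limma, adjusted p = 0.00288). Its other probe sets, 11206_f_at and 11205_i_at, were at -0.70 and -0.55, the probe set of both RPL17 copies was at -0.89, and those of RPL17A were at -0.52 and -0.51. All 6 were lower and are counted among the 11, but they share sequence and are not independent of each other. The lower share of this group thus leans on RPL17.

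RPL25, whose protein contacts the signal recognition particle at the tunnel exit, had signals of 1733, 1821, 2629.5 and 1747 with Upf1p-TAP and 4851, 3413, 3244 and 3560 in the mock. Its ratio was -0.93 (SE 0.20, limma, adjusted p = 0.0073) and the groups did not overlap. RPL39, a very small protein that lines the tunnel, had 2739, 1460, 1445 and 1993 with Upf1p-TAP and 4937, 2525, 2797.5 and 3058 in the mock. Only Upf1p-TAP array 1 reached into the mock range, and the ratio was -0.80 (SE 0.15, limma, adjusted p = 0.00393). RPL31B, at the rim of the exit, was lower on 9896_f_at (-0.63, adjusted p = 0.013), whereas its other 2 probe sets, at -0.44 and -0.26, did not pass.

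Among the rest, the probe set of both RPL9 copies was lower. Its signal (8921_s_at) was 1091, 1249, 1173 and 1286 with Upf1p-TAP and 2001, 2173, 2313 and 2246 in the mock, without overlap. Its log2 ratio of -0.86 (SE 0.15, limma, adjusted p = 0.00308) lay between -0.98 and -0.80 in the pairs. The probe sets of single RPL9 copies were less clear. RPL9A (5142_i_at) was lower (-0.52, limma, adjusted p = 0.0316), in 7 of 12 fits counting the main one. Its difference from its neighbours in mock signal was only -0.10. RPL9B (8920_i_at) was at -0.30, was not called and lay above 0 in 2 of 4 pairs. RPL36A (9420_i_at) was lower too (-0.63, adjusted p = 0.0134). RPL40A and RPL40B encode ubiquitin fused to a ribosomal protein. Of the 3 probe sets for both, 10473_i_at (-0.67, adjusted p = 0.0104) and 10474_s_at (-0.58, adjusted p = 0.015) were lower and 4253_i_at (-0.10) was not called. Disagreement of this size between probe sets of the same genes was also found for RPL8A and RPL8B (from -0.76 to -0.21), named after their values were seen.

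The stalk, which recruits and activates translation factors, had no called transcript. It consists of the P proteins, which RPP0 anchors to the subunit, with Rpl12 at its base. Of its 9 probe sets, 0 passed limma's adjusted threshold in either direction, while 35.4% of all members were lower. Of all probe sets, 13.5% were lower and 17.7% higher, so few calls would be looked for among 9. The 9 are not independent, since 3 are annotated to RPL12A and RPL12B and 2 to RPP1B. At an unadjusted p under 0.05, 1 was lower (RPP2A, -0.48), and the median was -0.21. RPP0 (9964_at) had signals of 9453, 5880, 6152 and 6383 with Upf1p-TAP and 13927, 6746, 6283 and 8552 in the mock, with overlap, and a ratio of -0.30 (SE 0.14, limma, adjusted p = 0.141). In pair 3 the stalk probe sets had a median of 0.34 and 7 of 9 lay above 0, against at most 1 of 9 in each other pair. For RPL5, RPL11A and RPL11B, whose proteins carry the 5S rRNA into the subunit, 1 of 4 probe sets was lower (7633_s_at, -0.54, adjusted p = 0.0288) and RPL5 was at -0.32 and not called. The choice to name RPP2A, RPL5 and RPL11 followed their values.

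The difference between genes with and without a second copy was not tested. The 11 probe sets of the 11 single-copy genes had a median of -0.32, with 4 lower (36.4%), and the 85 of genes with copies had a median of -0.38, with 30 lower (35.3%). By kind of probe set, the median was -0.41 for those of both copies, -0.25 for those of 1 gene with a plain name and -0.45 for those of 1 gene marked as similar. In the same order 12 (31.6%), 10 (28.6%) and 12 (52.2%) were lower, against 13.5% of all probe sets. Differences between these kinds were not tested. Both higher members were of the plain kind.

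Small subunit proteins, read the same way from 68 probe sets, had a median of -0.39, with 28 lower (41.2%) and 1 higher. Their medians in pairs 1 to 4 were -0.49, -0.37, -0.16 and -0.50, side by side with -0.42, -0.29, -0.18 and -0.47 for the large subunit on the same arrays. The 35 probe sets of the large subunit of the mitochondrial ribosome are much dimmer (267 as their median in the mock). Of them 26 were lower (74.3%), and their median ratio was -0.83. These differences between parts of the series were not tested.

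Genes that regulate, guard or modify large subunit proteins, from a list written from general knowledge, went in both directions. Calls in both directions were common on the arrays, with 17.7% of all probe sets higher and 13.5% lower. Of 7 regulators of ribosomal protein genes, the HMG-box protein gene HMO1 (0.62, adjusted p = 0.0227) and the corepressor gene CRF1 (0.90, adjusted p = 0.0173) were higher. The general regulatory factor genes RAP1 (-0.67, adjusted p = 0.0362) and ABF1 (-0.94, adjusted p = 0.0292) were lower, and FHL1 (0.28), IFH1 (-0.26) and SFP1 (0.48) did not pass. CRF1 was dim in the mock (7.71) and ABF1 with Upf1p-TAP (15.6), both under the 25th percentile of the tested values (16.0), and the offset added before taking logs bears on ratios of that kind.

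Of 5 dedicated chaperones, RRB1 (-1.04, adjusted p = 0.0121), which guards Rpl3, and SYO1 (-1.29, adjusted p = 0.00702), which brings Rpl5 and Rpl11 into the nucleus, were lower. BCP1 (0.99, adjusted p = 0.00467), which guards Rpl23, was higher, and the chaperone genes SQT1 for Rpl10 (-0.61, adjusted p = 0.0536) and ACL4 for Rpl4 (-0.27) did not pass. Of 7 methyltransferase genes, RKM4 stood out with a signal of 201 against 31.4 in the mock (2.47, SE 0.22, limma, adjusted p = 9.81e-05). Its enzyme methylates Rpl42. RKM5 (0.91, adjusted p = 0.0207), for Rpl1, was higher as well, and HPM1 (-0.63, adjusted p = 0.0452), for Rpl3, was lower. RKM1 (0.17), RKM2 (0.08), RKM3 (0.46) and TAE1 (-0.21) did not pass. None of these 19 genes was followed through the alternatives.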

How the data were processed

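Affymetrix Yeast Genome S98 arrays were used, and the values the authors deposited are linear intensities, 1 per probe set and array. GCOS is the software given in the submitters' processing notes, without a version. The values had been scaled before deposit, since the 2% trimmed mean of every array was 250.2 or 250.3. Intensities give no molecule counts, and the 8 arrays limit the precision.

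The 60 control probe sets were not tested. Genes came from the platform annotation, updated through a RefSeq gene table (6504 probe sets with 1 gene, 328 with several, 2443 with none). The table's build is not tied to the array, so no coordinates are given, and no sequences were used here. Genes of the rule without a tested probe set are not reported here. An offset of 4.09, the 10th percentile of tested values, was added to each intensity before taking log2, and ratios are on that scale. The model of limma 3.58.1 (R 4.3.3) held the group and the replicate number as a block, since the submitters describe the selections as independent pairs, and eBayes used an intensity trend. p-values are two-sided, Benjamini-Hochberg adjusted over 9275 probe sets, called at 0.05. Each SE comes from limma after moderation. Deviations from group means correlated at 0.18 to 0.55 between arrays of the same number and at -0.54 to 0.35 between others. Whether each selection had its own culture is not stated in the labels, so a p-value reflects only how these selections differ, which may be technical. The script was tested on simulated data.

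Members, gene lists and tests were chosen with earlier results of these data known. The text names RPL22A, RPL22B, RPL28, RPL3, RPL30 and RPP0, every higher member, the 12 lower members with the smallest p, and copies whose difference kept 1 sign in 4 of 4 pairs. Where a gene had several probe sets, a plain one came before others, then the brightest. Alternatives were no offset (floor of 1), an offset at the 25th percentile (16.0), quantile normalization, median centring, a filter on dim probe sets (above the array median on at least 4 arrays), no block, no trend, each pair left out, 25 or 400 neighbours, and 1 probe set per gene. Medians by kind of probe set and protein-coding neighbours were added after the data were seen.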

Additional observations from a re-analysis of the deposited data

Results flagged for a closer look

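In groups of 4 arrays, a signal was singled out when its gap to the nearest of the others took up more than the 95% critical share (Dixon) of the group's range on the log2 scale. Chance alone singles out about 1 group in 20, and 52 groups were examined over 26 probe sets, of which 3 met this. RPL25 (8662_at) had a signal of 2629.5 on Upf1p-TAP array 3, above the other 3 Upf1p-TAP arrays at 1733 to 1821. RPL21B (7811_at) had 9592.5 on the same array, above the others at 8015 to 8215. RPL36A (9420_i_at) had 5212 on Upf1p-TAP array 4, below the others at 7091 to 7496.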

How the results depend on the processing

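The median ratio of the members was below 0 in every alternative run. It was -0.18 after quantile normalization and -0.52 after median centring, which moved the median of all probe sets to -0.14, and otherwise stayed within the spread between pairs (from -0.44 to -0.32 with 1 pair left out, -0.30 with 1 probe set per gene). The 34 lower members became 13 after quantile normalization, 15 with no replicate block (the pairs ignored) and 16 without an intensity trend, 27 with no offset, 34 with the higher offset, 46 after median centring and 45 when dim probe sets were dropped, and between 8 and 43 with 1 pair left out. The 2 higher members were 1 or 2 with 1 pair left out. Fewer arrays enter the fits with a pair left out; for the other changes the cause was not tested. Relative to neighbours in mock signal the median stayed between -0.13 and -0.05.

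For 26 named probe sets, 246 of 285 alternative values kept direction and side of the threshold, 30 lost the call, 1 gained it (RPL21B without replicate 3, -0.56, adjusted p = 0.0349) and 8 changed sign, none of them called. After quantile normalization RPL21A was at 0.084 and RPL24A at 0.11. After median centring RPL28 was at -0.077 and RPL30 at -0.14. With 1 pair left out, RPL7B (7960_i_at) ran from -0.17 to 0.0074, RPL28 from -0.12 to 0.22 and RPL30 from -0.13 to 0.11, and the sign changed without replicate 1 for RPL7B and RPL30 and without replicate 3 for RPL28 and RPL30. The 6 copy differences that kept 1 sign over the pairs kept it in all alternatives run. None of these alternatives read a copy from another probe set. The differences ran from -2.35 to -1.80 for RPL22, from -1.34 to -1.10 for RPL15 and from -1.54 to -0.93 for RPL7. For RPL21 they ran from 0.05 to 0.30, for RPL33 from 0.09 to 0.27 and for RPL24 from 0.07 to 0.25.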

Other observations

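In the gene table, 2 small nucleolar RNAs lie within large subunit genes, SNR39 in RPL7A and SNR59 in RPL7B. SNR39 (4603_at) had a signal of 69.1 ± 24.1 with Upf1p-TAP and 115 ± 73.8 in the mock (SD, n = 4), and its log2 ratio of -0.53 (SE 0.27, limma, adjusted p = 0.171) did not pass. SNR59 was not analysed here. The 3 probe sets of RPL7A itself were lower, at -1.36, -0.99 and -0.81.

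The probe set of RPL41A and RPL41B, the genes of the smallest ribosomal protein, was the second dimmest member. It had a signal of 220 ± 71.3 with Upf1p-TAP and 189 ± 29.3 in the mock (SD, n = 4), and its ratio of 0.18 was not called.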
